A study of Mus musculus with 16 samples.

Results

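The EGF receptor family and its ligands were described in ear skin of mice treated with MC903, a vitamin D analogue (calcipotriol) that induces inflammation resembling atopic dermatitis. The 10 genes were 7 ligands (Areg, Epgn, Ereg, Hbegf, Tgfa, Btc and Egf) and 3 receptors (Egfr, Erbb2 and Erbb3), found by symbol among 45777 genes of the deposited table. All 10 passed the filter on low counts, with 175 to 10790 reads per gene and library. The genes were selected on their read counts in the contrast between the antibody groups, already known, with TPM (transcript abundance per length, scaled to a sum of 1000000) for level. Their values in this contrast are therefore given as descriptions. No p-value is printed for them, and where a count of members past a threshold is given, beside the share of all genes, nothing is read from it. Intervals printed with their fold changes are adjusted neither for the number of genes tested nor for this selection. A member interval lying wholly on either side of no change is therefore not read as a difference between the groups.

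Groups were 3 libraries of anti-OSM mice, given an antibody against oncostatin M, and 3 libraries of anti-Ly6G mice, given an antibody against a neutrophil surface protein. Both groups were wild-type C57BL/6 mice, and both ears received 50 µM MC903 in 20 µL of ethanol daily for 10 days. Each anti-OSM mouse received 20 µg intradermally on alternate days. Each anti-Ly6G mouse received 200 µg intraperitoneally on 3 occasions, 2 days ahead of MC903 and then 1 and 4 days into it. Effects of the antibody, its route and its timing cannot be told apart, and ears without either antibody were not analysed here. The labels used here give neither age nor sex, and do not state whether each library is a different mouse, so any p-value reflects only library-to-library spread. Which of the 2 groups moved cannot be told, and "lower" or "higher" below is anti-OSM relative to anti-Ly6G.

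EGF family ligands are made as membrane-anchored precursors and are released by metalloproteases of the ADAM family. They bind receptor tyrosine kinases of the ErbB family, which pair with each other and signal through RAS, ERK and PI3 kinase. In the epidermis this signalling drives keratinocyte proliferation, migration in wound repair and hair follicle growth, and keratinocytes make several of the ligands themselves.

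Total counts were 52163179 to 59063578 in the anti-OSM libraries and 59381146 to 64122588 in the anti-Ly6G libraries. The first principal component of all tested genes parted the groups, at -34.7 to -26.6 for anti-OSM and 14.9 to 39.3 for anti-Ly6G, and anti-Ly6G replicate 3 (14.9) lay nearest to the other group. For Areg, Epgn and Ereg the values without it are given where each is described. Without it, the log2 fold changes of the others were -0.13 for Hbegf, -0.23 for Tgfa, 0.39 for Btc, -0.01 for Egf, -0.18 for Egfr, -0.14 for Erbb2 and -0.29 for Erbb3. Basal keratinocyte keratins were abundant in all 6 libraries, with Krt14 at 5586 to 7040 TPM with anti-OSM and 9125 to 10039 TPM with anti-Ly6G. These are bulk samples, so fewer cells of a type and less RNA per cell cannot be told apart.

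Among the ligands, Areg and Epgn were several-fold lower with anti-OSM, and the other 5 ligands had log2 fold changes of -0.34 to 0.36. Areg encodes amphiregulin, an EGFR ligand made by keratinocytes and also by regulatory T cells, type 2 innate lymphoid cells and mast cells. Its level was 5.67, 7.29 and 9.18 TPM in the anti-OSM libraries, against 41.1, 27.6 and 27.4 TPM in the anti-Ly6G libraries. Every anti-OSM library lay below every anti-Ly6G library, and anti-Ly6G replicate 1 stood above the other two of its group. The mean was 7.38 ± 1.76 TPM against 32.0 ± 7.81 TPM (SD, n = 3 each), a log2 fold change of counts of -2.09 (SE 0.24, 95% interval -2.66 to -1.53). The reads behind it numbered 175, 256 and 313 in anti-OSM libraries, against 1513, 918 and 1015 in anti-Ly6G libraries.

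Epgn encodes epigen, an EGFR ligand of epithelia that binds its receptor weakly and signals for long. It stood at 10.3, 10.3 and 10.6 TPM with anti-OSM, against 69.4, 45.9 and 41.6 TPM with anti-Ly6G. The anti-OSM libraries were nearly equal, most of the spread lay in the anti-Ly6G group, and replicate 1 of that group was again the highest. The mean was 10.4 ± 0.153 TPM against 52.3 ± 15.0 TPM (SD, n = 3 each), with a log2 fold change of -2.32 (SE 0.21, 95% interval -2.81 to -1.82). Without anti-Ly6G replicate 3 the log2 fold changes were -2.21 for Areg and -2.47 for Epgn. Leaving out each of the 6 libraries gave -2.29 to -1.84 for Areg and -2.47 to -2.03 for Epgn. The ratio of Epgn to Areg TPM was 1.82, 1.41 and 1.15 in anti-OSM libraries, against 1.69, 1.66 and 1.51 in anti-Ly6G libraries, so that Epgn was the more abundant transcript of the pair in each library.

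**Figure D1:**
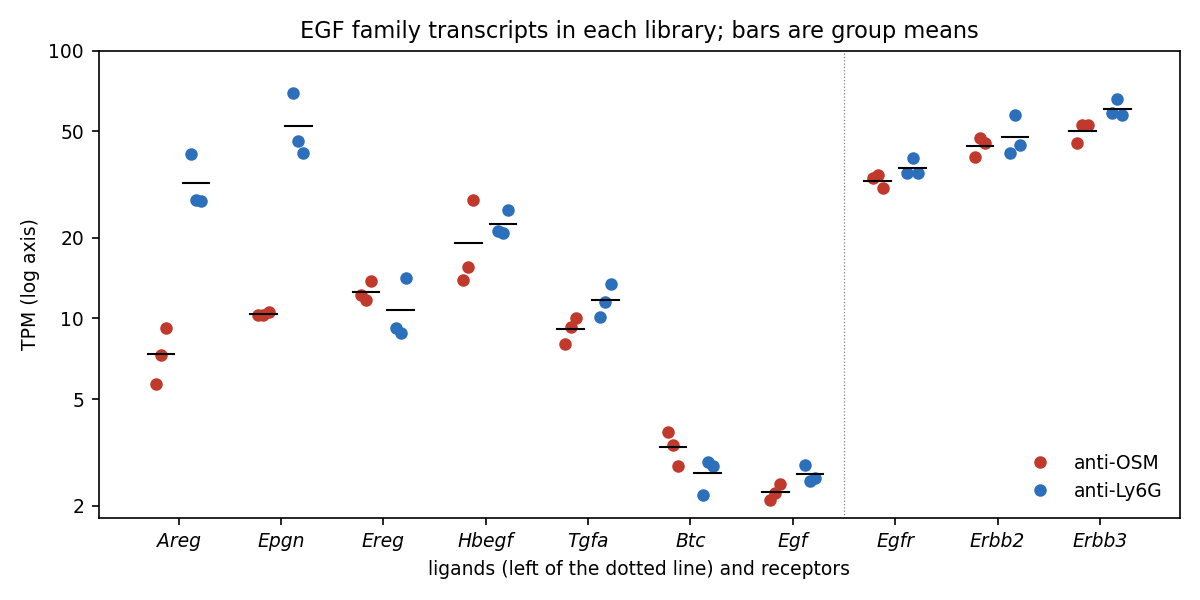
TPM of the 10 genes (log axis) in each library, anti-OSM in red left of anti-Ly6G in blue, with group means as black bars. Areg and Epgn show the wide gaps, with anti-OSM libraries at 5.67 to 10.6 TPM and anti-Ly6G libraries at 27.4 to 69.4 TPM, while the receptors lie between 30.6 and 65.8 TPM in both groups.

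Ereg, Hbegf and Tgfa are ligands that activated keratinocytes also make. Ereg encodes epiregulin, which binds EGFR and ErbB4, and stood at 12.2, 11.7 and 13.8 TPM with anti-OSM, against 9.21, 8.84 and 14.2 TPM with anti-Ly6G. The groups overlapped through anti-Ly6G replicate 3, which was the highest of the 6. Its log2 fold change was 0.25 (SE 0.18, 95% interval -0.15 to 0.66), and 0.49 without that library.

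Hbegf encodes heparin-binding EGF-like growth factor, a ligand of wound-edge keratinocytes. It stood at 13.9, 15.6 and 27.7 TPM with anti-OSM, against 21.2, 20.9 and 25.5 TPM with anti-Ly6G. Anti-OSM replicate 3 exceeded every anti-Ly6G library while the other two of its group lay below all of them. The log2 fold change was -0.21 (SE 0.26, 95% interval -0.84 to 0.41), and -0.60 without anti-OSM replicate 3, so that 1 library set its size. In that same library Egr1, an immediate early gene of ERK signalling, was at 149 TPM, against 68.9 and 64.5 TPM in the other anti-OSM libraries and 105.6, 96.7 and 81.1 TPM with anti-Ly6G.

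Tgfa encodes transforming growth factor alpha, an EGFR ligand whose loss in mice gives wavy hair. It was at 7.99, 9.26 and 10.06 TPM with anti-OSM, against 10.09, 11.5 and 13.5 TPM with anti-Ly6G. The groups met without overlapping, since the highest anti-OSM library and the lowest anti-Ly6G library were almost equal. The log2 fold change was -0.34 (SE 0.13, 95% interval -0.62 to -0.05).

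Btc and Egf were the least abundant members. Btc encodes betacellulin, a ligand of EGFR and ErbB4, and had 3.77, 3.36 and 2.82 TPM with anti-OSM, against 2.18, 2.92 and 2.81 TPM with anti-Ly6G, with overlap between the groups. Its log2 fold change was 0.36 (SE 0.15, 95% interval 0.01 to 0.70). Egf, the founding ligand of the family, had 2.103, 2.23 and 2.41 TPM with anti-OSM, against 2.84, 2.48 and 2.53 TPM with anti-Ly6G. All 3 anti-OSM libraries were below the others on that scale. The fit on counts gave -0.06 (SE 0.12, 95% interval -0.35 to 0.22), while the ratio of mean TPM gave -0.22 on the log2 scale.

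Summed over the 7 ligand genes, transcripts came to 56.0, 59.7 and 76.5 TPM with anti-OSM and 156, 120.2 and 127 TPM with anti-Ly6G. Areg and Epgn together held 25.8% to 29.4% of that sum in anti-OSM libraries, against 54.1% to 70.8% in anti-Ly6G libraries. The other 5 ligands summed to 46.3 ± 9.10 TPM with anti-OSM and 50.2 ± 7.15 TPM with anti-Ly6G (SD, n = 3 each), a difference smaller than the spread within either group. Hbegf was the leading ligand with anti-OSM, at 24.8% to 36.2% of the sum against 13.6% to 20.0% with anti-Ly6G. Epgn led with anti-Ly6G, at 13.8% to 18.4% of the sum in anti-OSM libraries and 32.6% to 44.5% in anti-Ly6G libraries.

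**Figure D2:**
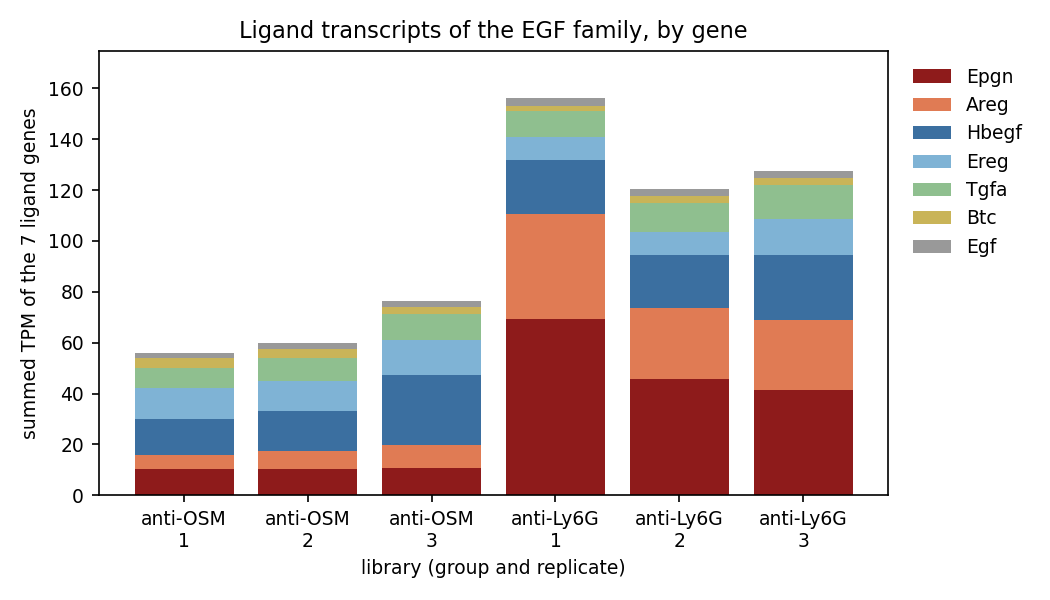
Summed TPM of the 7 ligand genes in each library, stacked by gene from Epgn at the bottom to Egf at the top. The bars reach 56.0 to 76.5 TPM with anti-OSM and 120.2 to 156 TPM with anti-Ly6G, and the parts for Epgn and Areg differ most in height.

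The 3 receptors had log2 fold changes of -0.25 to -0.08. Egfr, which binds all 7 ligands, was at 33.4, 34.3 and 30.6 TPM with anti-OSM, against 35.0, 39.8 and 35.0 TPM with anti-Ly6G, with a log2 fold change of -0.14 (SE 0.07, 95% interval -0.30 to 0.02). The groups lay side by side without overlap and less than 1 TPM apart at their nearest libraries. Erbb2, which has no known ligand and serves as the partner of the other receptors, was at 40.2, 47.1 and 45.4 TPM with anti-OSM, against 41.3, 57.4 and 44.4 TPM with anti-Ly6G. Its groups overlapped, its log2 fold change was -0.08 (SE 0.12, 95% interval -0.35 to 0.19), and the sign turned without anti-Ly6G replicate 2 (0.05). Erbb3, whose own kinase is weak and which is activated through its partners, was at 45.1, 52.7 and 52.7 TPM with anti-OSM, against 58.7, 65.8 and 57.7 TPM with anti-Ly6G. All 3 anti-OSM libraries were below the others, with a log2 fold change of -0.25 (SE 0.09, 95% interval -0.45 to -0.05). Summed, the 3 receptors came to 127 ± 7.80 TPM with anti-OSM and 145 ± 15.6 TPM with anti-Ly6G (SD, n = 3 each).

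**Figure D3:**
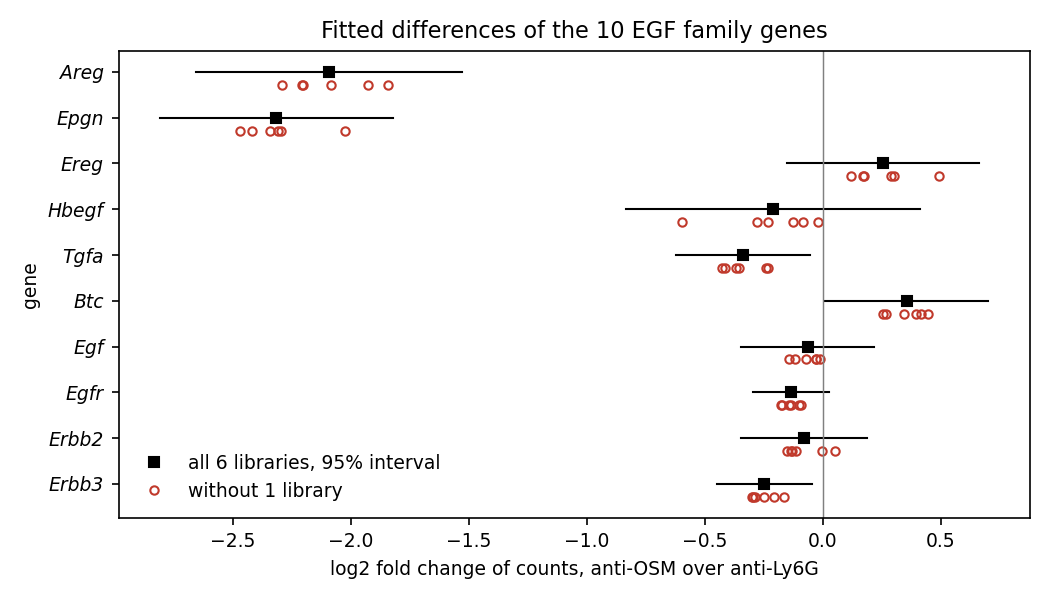
Fitted log2 fold changes of counts, anti-OSM over anti-Ly6G, with 95% intervals (black) for the 10 genes from Areg at the top to Erbb3 at the bottom, and the values without each library in turn (open circles). Areg (-2.09) and Epgn (-2.32) lie apart from the other 8 genes, whose values run from -0.34 to 0.36.

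Over the 19915 genes fitted with edgeR, 2 of the 10 members (Areg and Epgn) lay past an adjusted p of 0.05 as lower and 0 as higher, where 6.27% of all tested genes were lower and 5.81% higher. On TPM, 6 members had every anti-OSM library below every anti-Ly6G library and 0 had the opposite, against 18.5% and 14.5% of all tested genes (33.1% in either direction). Of these members, Egfr and Egf overlapped between the groups on counts scaled to library size. The median log2 fold change was -0.17 over the 10 members and 0.01 over all tested genes. All of these belong to the contrast on which the members were chosen, so they describe the choice and are no support for it. The order of levels also differed between the groups. With anti-OSM it ran Erbb3, Erbb2, Egfr, Hbegf, Ereg, Epgn, Tgfa, Areg, Btc and Egf, with overlapping ranges for Erbb3 and Erbb2 and for Tgfa and Areg. With anti-Ly6G it ran Erbb3, Epgn, Erbb2, Egfr, Areg, Hbegf, Tgfa, Ereg, Btc and Egf, where 5 neighbouring pairs overlapped (Erbb3 and Epgn, Epgn and Erbb2, Egfr and Areg, Tgfa and Ereg, Btc and Egf). Epgn thus ranked 6 of 10 with anti-OSM and 2 of 10 with anti-Ly6G, and Areg 8 and 5.

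Epgn, Ereg, Areg and Btc lie side by side on chromosome 5 within 375478 bases (GRCm38.p6, RefSeq), with no other protein-coding gene between them. Epgn (91027517 to 91035212, plus strand) is separated by 39404 bases from Ereg (91074617 to 91093649, plus strand), and Ereg by 45949 bases from Areg (91139599 to 91148432, plus strand). Btc (91357261 to 91402994, minus strand) follows after 208828 bases. The genes at both ends of the triplet, Epgn and Areg, were the ones with the low anti-OSM values, whereas Ereg between them and Btc beside them had small positive log2 fold changes (0.25 and 0.36). Gm19610, a long non-coding RNA gene chosen here after its values were seen, lies between Epgn and Ereg and shares 319 bases with the start of Ereg on the opposite strand. It had 69, 81 and 90 reads with anti-OSM, against 257, 159 and 146 with anti-Ly6G. Its log2 fold change was -1.11 (SE 0.24), given as a description because of that choice. The sources used here do not give whether counting used strand, so reads of Gm19610 and Ereg in the shared stretch are uncertain. Erbb2 likewise overlaps Mien1 on the other strand, with 1295 to 1479 Mien1 reads in anti-OSM libraries, against 1435 to 1700 in anti-Ly6G libraries.

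**Figure D4:**
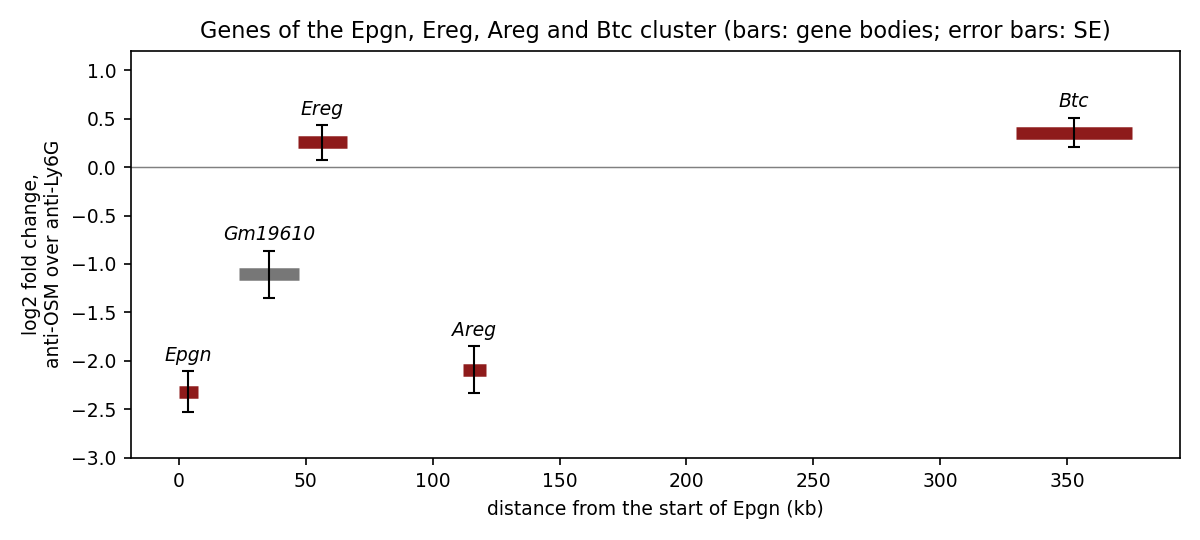
Fitted log2 fold changes of counts, anti-OSM over anti-Ly6G (bars drawn over each gene's extent, error bars of 1 SE), by distance in kb from the start of Epgn. Epgn and Areg lie near -2, Gm19610 at -1.11, and Ereg and Btc slightly above 0.

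Promoters are shown for the neighbours Epgn and Areg, with the low anti-OSM values, and for their neighbour Btc. They are RefSeq sequences of GRCm38.p6, 250 bases before to 50 after the annotated start. Capitals mark matches on either strand to the AP-1 motif TGANTCA, the CRE motif TGACGTCA (the cyclic AMP response element), the STAT motif TTCNNNGAA, the C/EBP motif TTGCNNAA and the TATA motif TATAAA.
Areg, chr5:91139349-91139648, plus strand: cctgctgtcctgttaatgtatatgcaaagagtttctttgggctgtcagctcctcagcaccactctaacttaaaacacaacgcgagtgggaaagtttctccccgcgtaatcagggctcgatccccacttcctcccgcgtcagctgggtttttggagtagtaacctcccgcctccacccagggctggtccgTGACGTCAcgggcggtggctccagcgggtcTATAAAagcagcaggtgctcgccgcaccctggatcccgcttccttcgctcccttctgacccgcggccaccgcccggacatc
Epgn, chr5:91027267-91027566, plus strand: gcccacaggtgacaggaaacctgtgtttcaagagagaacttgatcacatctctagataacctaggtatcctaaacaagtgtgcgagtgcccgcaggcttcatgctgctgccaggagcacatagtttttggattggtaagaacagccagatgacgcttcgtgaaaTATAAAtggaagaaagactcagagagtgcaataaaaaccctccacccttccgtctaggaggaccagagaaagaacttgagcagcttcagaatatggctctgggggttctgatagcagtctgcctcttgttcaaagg
Btc, chr5:91402945-91403244, minus strand: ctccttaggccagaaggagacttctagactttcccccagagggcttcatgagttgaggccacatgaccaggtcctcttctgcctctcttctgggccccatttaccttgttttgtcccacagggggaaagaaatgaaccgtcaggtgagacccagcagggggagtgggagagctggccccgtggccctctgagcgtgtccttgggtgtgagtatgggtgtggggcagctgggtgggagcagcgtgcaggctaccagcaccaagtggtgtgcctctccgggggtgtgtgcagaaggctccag

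The Areg promoter held TGACGTCA with its first base at -61 and TATAAA at -31 from the start site. The Epgn promoter held TATAAA at -86 and none of the other 4 motifs, and the Btc promoter held none of the 5. Of 32851 promoters of the same length, 1.79% held the CRE motif, 13.6% the TATA motif, 7.81% the AP-1 motif, 8.30% the STAT motif and 10.8% the C/EBP motif. Areg and Epgn therefore shared only the TATA letters among the motifs searched, at different distances from the start. GC content was 59.3% for Areg, 47.3% for Epgn and 60.3% for Btc, beside a median of 52.7% over all promoters. Of the 10 members, 7 had a promoter in the table used, and among the others Egf held a C/EBP match at -71 in 1 of its 2 promoters while Tgfa, Egfr and Erbb2 held no match.

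The genes most like each ligand over the 6 libraries were found by the root mean square difference of centred log2 CPM profiles (CPM, counts scaled to library size) among 14226 other genes. These profiles include the difference between the groups. For Areg they were Akr1d1, a steroid reductase gene, Adm2, an adrenomedullin family hormone gene, and Sh2d5, with differences of 0.15, 0.21 and 0.24. For Epgn they were Tchh (0.13), which encodes trichohyalin of the hair follicle inner root sheath, Cyp24a1 (0.21), which degrades active vitamin D, and Antxrl (0.22). Areg and Epgn differed from each other by 0.21, so that each was about as near to the other as to these genes. For Ereg the nearest were Clec5a (0.04), a myeloid cell lectin gene, Slfn5 (0.05) and Pglyrp2 (0.06). For Hbegf they were Hcn4 (0.11), Myoz3 (0.12) and H19 (0.12). Between members, the smallest differences were among the receptors, with 0.12 for Egfr and Erbb3 and 0.13 for each of their pairs with Erbb2. Egf and Egfr followed at 0.15. The profiles were centred but not scaled, so genes that vary little differ little whatever their pattern. The sizes therefore cannot be compared between ligands, nor do they show that the receptors share a pattern.

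Of 75 other pathway genes in 5 lists, 74 were tested, and 1 was higher and 7 lower with anti-OSM (1.35% and 9.46%, beside 5.81% and 6.27% of all tested genes). Their median log2 fold change was -0.07. ERK-induced genes held most of those called lower. Sheddases (8.33% higher) and feedback and turnover genes (5.26% lower) held 1 each, near the shares of all tested genes, and signal transducers held 0. Without anti-Ly6G replicate 3 the counts were 3 higher and 8 lower, and without the other libraries in turn 0 or 1 higher and 2 to 4 lower. Over all genes, calls numbered 1157 higher and 1249 lower with all libraries, and 1545 and 1447 without anti-Ly6G replicate 3. Without the others in turn they numbered 240 to 580 higher and 420 to 739 lower, so losing a call was common over all genes.

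Among genes that ERK signalling is known to induce, 5 of 16 passed as lower and 0 as higher, with a list median of -0.15 beside 0.01 over all tested genes. Etv4, an ETS transcription factor gene downstream of receptor tyrosine kinases, was at 8.72, 10.4 and 7.94 TPM with anti-OSM, against 21.1, 20.0 and 17.2 TPM with anti-Ly6G. The groups were far apart relative to their spread, at -1.09 on the log2 scale (SE 0.13, adjusted p = 0.00365). It was the gene of the 8 called that passed without each of the 6 libraries (adjusted p 0.00184 to 0.0219). Egr3, an immediate early transcription factor gene, was at 51.6, 48.9 and 53.8 TPM with anti-OSM, against 81.9, 87.4 and 67.4 TPM with anti-Ly6G (-0.59, SE 0.10, adjusted p = 0.0118). It lost its call without anti-OSM replicate 1 (adjusted p = 0.0519).

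Phlda1 (-0.53, adjusted p = 0.0346), Myc (-0.39, adjusted p = 0.0346) and Etv5 (-0.34, adjusted p = 0.0428), a close relative of Etv4, were also lower, with no overlap between groups in TPM. These calls were less firm, since Phlda1 and Myc each lost theirs without 5 of the 6 libraries and Etv5 without 4, at adjusted p up to 0.148. Such losses were common over all genes, as given above. The log2 fold changes without each library were -0.71 to -0.44 for Phlda1, -0.49 to -0.33 for Myc and -0.42 to -0.29 for Etv5. Fosl1, an AP-1 subunit gene, had 3.28, 1.78 and 5.64 TPM with anti-OSM, against 7.77, 5.84 and 9.03 TPM with anti-Ly6G, without overlap but without passing (-1.06, SE 0.39, adjusted p = 0.127). Egr1 (0.02, 95% interval -0.83 to 0.88) and Ccnd1, the cyclin D1 gene (0.14, -0.07 to 0.35), did not pass.

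Of 5 genes for ErbB4 and the neuregulins, the ligands of ErbB3 and ErbB4, 4 were tested and 1 was lower. Nrg1 was at 2.07, 1.09 and 1.96 TPM with anti-OSM, against 3.21, 2.65 and 3.71 TPM with anti-Ly6G (-0.92, SE 0.20, adjusted p = 0.0242). The groups did not overlap, but the call was lost without any 1 anti-OSM library or without anti-Ly6G replicate 1 (adjusted p 0.0556 to 0.0758). Erbb4 was barely present, at 0.111 ± 0.0330 TPM with anti-OSM and 0.183 ± 0.00939 TPM with anti-Ly6G (SD, n = 3 each), far under the 3 receptors above, and did not pass (-0.65, adjusted p = 0.136). Nrg3, the gene not tested, had 2 reads in 1 anti-OSM library and 0 in the other 5, at or under the floor of 3 counts.

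Of 12 genes for the proteases that release the ligands, their regulators and their inhibitor, 1 was higher and 0 lower. Adam17, the main sheddase of Areg, Hbegf and Tgfa, was at 54.2 ± 2.07 TPM with anti-OSM and 56.7 ± 4.68 TPM with anti-Ly6G (-0.03, 95% interval -0.19 to 0.13). Adam10, which releases Egf and Btc, had 0.16 (-0.06 to 0.38). The iRhom genes Rhbdf1 (0.09) and Rhbdf2 (-0.07), whose products carry ADAM17 to the cell surface, and Timp3 (-0.10), which encodes its inhibitor, did not pass either. Adam19, a sheddase of neuregulins, was higher at 21.7, 17.2 and 17.4 TPM with anti-OSM, against 12.2, 14.1 and 15.3 TPM with anti-Ly6G (0.47, SE 0.10, adjusted p = 0.0249). Its call was lost without 4 of the 6 libraries, namely anti-OSM replicates 1 and 3 and anti-Ly6G replicates 1 and 2 (adjusted p up to 0.0796). Adam12 had the log2 fold change of largest size in the list (0.64), with every anti-OSM library above in TPM. It did not pass the edgeR test (adjusted p = 0.125), although DESeq2 called it higher.

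Of 19 genes listed for feedback on the receptors and their turnover, whether they slow or promote it, 1 was lower and 18 did not pass. Ubash3b, which encodes a phosphatase that binds the ubiquitin ligase CBL, had 8.999, 8.52 and 8.46 TPM with anti-OSM, against 11.9, 8.83 and 9.46 TPM with anti-Ly6G (-0.35, SE 0.08, adjusted p = 0.0262). Its groups overlapped in TPM, and the call was lost without any 1 anti-OSM library or without anti-Ly6G replicate 1 (adjusted p up to 0.0948). Errfi1, which encodes a direct EGFR inhibitor, was at 125 ± 15.2 TPM with anti-OSM and 128 ± 10.9 TPM with anti-Ly6G (-0.01, 95% interval -0.24 to 0.21). Lrig1 (-0.13), Spry2 (-0.14), Spry4 (-0.27) and Dusp6 (-0.14), further negative regulators of the receptors or of ERK, did not pass. Dusp5 had the log2 fold change of largest size in the list (-0.62), with every anti-OSM library below in TPM. It did not pass the edgeR test (adjusted p = 0.0766), although DESeq2 called it lower. Of 23 signal transducers 0 were called in either direction. The adaptor gene Grb2 (0.22) and the ERK kinase gene Mapk3 (0.24, adjusted p = 0.0897) were among them. DESeq2 called 1 of these 23 (Ptpn11, lower), and 0 of the 23 lay beyond 0.27 on the log2 scale in either direction.

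**Figure D5:**
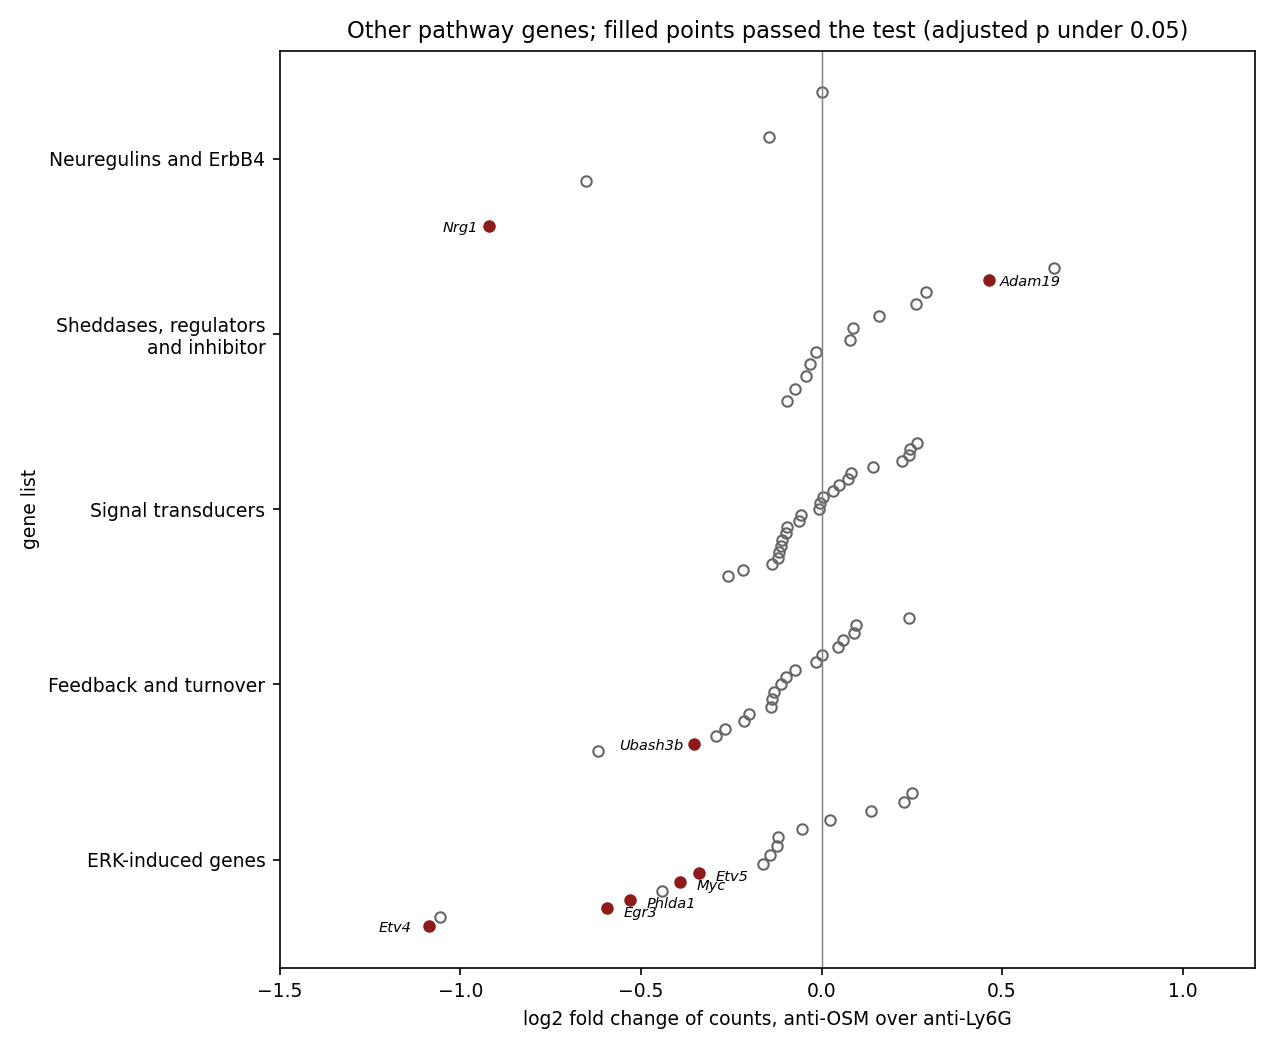
Log2 fold changes of counts, anti-OSM over anti-Ly6G, of the 74 tested pathway genes by list, with genes past an adjusted p of 0.05 filled and named. ERK-induced genes hold 5 of the 7 filled points left of 0, and the 23 signal transducers hold none.

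Markers of the cells that could hold these transcripts differed between the groups as well, and their part in the values of the ligands was not tested. The counts of markers called stand beside 5.81% of all tested genes called higher and 6.27% called lower. Of 7 basal keratinocyte markers 3 were lower (Krt14, Itga6 and Itgb4) and 0 higher. These 7 markers had summed levels of 9899.6 to 12143 TPM with anti-OSM and 15256 to 15444 TPM with anti-Ly6G. The log2 fold change of largest size among them was -0.58 (Itgb4). Of 7 suprabasal markers 1 was higher (Ivl, 0.67) and 0 lower, with sums of 20057 to 22231 TPM with anti-OSM and 17908 to 25797 TPM with anti-Ly6G. Krt1 was at -0.68 with every anti-OSM library below in TPM, and did not pass the edgeR test (adjusted p = 0.0522). Krtdap (0.20) and Calm4 (0.21) had every anti-OSM library above in TPM and did not pass either. Hair follicle markers summed to 34.8 to 47.7 TPM with anti-OSM and 136 to 299 TPM with anti-Ly6G, of which Tchh made up most. Tchh passed (-2.26, adjusted p = 0.00521) and the other 6 tested follicle markers did not, although the inner root sheath keratins Krt25, Krt27, Krt28, Krt71 and Krt73 had values from -4.40 to -2.05. Anti-Ly6G replicate 1, the highest library for Areg and Epgn, was also the highest for all 5 of these keratins. Krt71, for example, was at 0.750, 0.487 and 0.261 TPM with anti-OSM, against 28.2, 2.68 and 0.579 TPM with anti-Ly6G, so that anti-Ly6G replicate 3 lay within the anti-OSM range. Sebaceous markers summed to 1116 to 2087 TPM with anti-OSM and 2234 to 2699 TPM with anti-Ly6G, with 0 of 7 called.

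Immune marker lists held 0 markers that passed as lower and several that passed as higher, where 5.81% of all tested genes were higher and 6.27% lower. Of 6 mast cell markers 4 were higher, with sums of 935 to 1055 TPM with anti-OSM and 533 to 694 TPM with anti-Ly6G. Of 8 markers of T cells and type 2 innate lymphoid cells 2 were higher (Trac and Cd4) and 6 did not pass, among them Foxp3 of regulatory T cells (0.50 on the log2 scale, adjusted p = 0.103), Gata3 (0.31, 0.0867) and Il1rl1 (0.58, 0.0692), with sums of 133 to 148 TPM with anti-OSM and 85.7 to 117 TPM with anti-Ly6G. Of 7 macrophage and dendritic cell markers 4 were higher, with sums of 1094 to 1217 TPM with anti-OSM and 598 to 870.1 TPM with anti-Ly6G. Of 4 tested eosinophil markers 2 were higher, with sums of 9.95 to 24.5 TPM with anti-OSM and 3.24 to 6.62 TPM with anti-Ly6G. Basophil markers (24.8 to 56.3 TPM with anti-OSM, 20.4 to 72.1 TPM with anti-Ly6G) and neutrophil markers (336 to 491 TPM with anti-OSM, 288 to 482 TPM with anti-Ly6G) held 0 called. Outside the immune lists, fibroblast markers had 3 of 6 higher, with sums of 5442 to 6025 TPM with anti-OSM and 3412 to 4705 TPM with anti-Ly6G. Skeletal muscle markers had 5 of 6 lower (2987 to 3605 TPM with anti-OSM, 4362 to 5006 TPM with anti-Ly6G) and cartilage markers 3 of 5 tested (97.8 to 107 TPM with anti-OSM, 123 to 143 TPM with anti-Ly6G). Of these lists no marker was at 0 in all 6 libraries, and Shh, Matn1, Epx and Ly6g were at 0 in at least 1.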

How the data were processed

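RNA sequencing of polyA RNA gave 6 libraries in the deposited table, and the other 10 libraries of the labels were not analysed here. Per the file headers, the authors deposited counts of reads, FPKM and TPM for every gene in each library on mm10. The deposited counts were used for tests, the deposited TPM values for levels and the deposited FPKM values only to check columns. The submitters' processing notes name HISAT2 2.1.0, StringTie 2.1.3b and edgeR 3.40.2 among others, without roles, and how reads were assigned to genes was not given in these sources.

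Counts were fitted over the whole table with edgeR 4.0.16 in R 4.3.3 (filterByExpr, TMM scaling, robust quasi-likelihood F-test, 2-sided, Benjamini-Hochberg adjustment over 19915 genes, threshold 0.05), with DESeq2 1.42.0 as an alternative. Log2 fold changes are anti-OSM over anti-Ly6G, and SEs and 95% intervals were derived from the F statistic. These intervals are not adjusted for the number of genes. The fit was tested on simulated data. Members, lists and tests were chosen with earlier results of these data known. Named genes were all members, called pathway genes, a fixed set named whatever its p (some of it not reported here), and the 3 genes most like 4 ligands (mean of at least 1 CPM, gene models left out). A floor of 3 counts was 0.0466 to 0.0565 CPM, and it covers counting error only. No 2 libraries of a group agreed within sampling noise (chi-square of at least 26.2 per gene). Proteins were planned and not used here.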

Additional observations from a re-analysis of the deposited data

How the results depend on the processing

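Alternatives were median-of-ratios and upper-quartile scaling, DESeq2, no filter, a filter of 1 CPM in 3 libraries, a replicate block and leaving out each library. Areg and Epgn stayed lower past the threshold in each, but all reuse the counts on which the members were chosen and add no support. Of 130 member fold changes under 13 settings, 129 moved by less than 1 SD between replicates and 1 moved by more (Egf, -0.22 as a ratio of mean TPM). Leaving out 1 library of 3 can scarcely move a fold change by 1 SD, and the scaling and filter settings moved it little. The tally therefore does not measure stability, as Hbegf ran from -0.60 to -0.02 and Erbb2 from -0.15 to 0.05. Leaving out libraries in turn, 0 to 1 members were called higher and 2 to 3 lower. Ereg was called higher without anti-Ly6G replicate 3, where 1545 genes were called higher over all, beside 1157 with all libraries. Hbegf was called lower without anti-OSM replicate 3, where 464 genes were called lower over all, beside 1249 with all libraries. Nothing is read from these member calls. With DESeq2, 2 pathway genes were higher and 11 lower, with 2 sheddase genes higher, 1 signal transducer lower and 2 feedback genes lower. DESeq2 also called more genes over all, with 1617 higher and 1762 lower beside 1157 and 1249 in the main fit. Without each library, the genes called numbered 240 to 1545 higher and 420 to 1447 lower over all genes, and 0 to 3 higher and 2 to 8 lower over the pathway. By list these were 0 to 1 neuregulin and ErbB4 genes lower, 0 to 3 sheddase genes higher, 0 to 1 signal transducers lower, 0 to 2 feedback genes lower and 2 to 4 ERK-induced genes lower. Replicate numbers were shared between the groups, and the deviations of same-numbered libraries correlated at 0.01, 0.04 and 0.12. Anti-OSM replicates 2 and 3 correlated best with their own number, and replicate 1 with anti-Ly6G replicate 2 (0.08). Correlations this small, from 3 libraries a group, cannot decide whether the numbers are pairs, and the main fit did not take them as pairs. With the replicate block, 3 pathway genes were higher, all 3 of them sheddase genes (Adam9, Adam12 and Adam19), and Tgfa joined the members called lower. That fit called 1325 genes higher and 1275 lower over all, and nothing is read from the call of Tgfa. The cause of these shifts was not tested. Precision is limited by 3 libraries a group.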

Other observations

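The anti-OSM library with the highest Hbegf was also the highest of the 6 for some ERK-induced genes and not for others. Fos, an AP-1 subunit gene chosen here after its values were seen, was at 138, 99.9 and 296 TPM in anti-OSM replicates 1 to 3, against 233, 202 and 172 TPM with anti-Ly6G. Anti-OSM replicate 3 was thus the highest of the 6 libraries for Hbegf, Fos and Egr1, and the lowest 2 for each were the other anti-OSM libraries. Egr3 (53.8 TPM), Fosl1 (5.64 TPM), Phlda1 (22.6 TPM) and Ier2 (99.2 TPM) were not highest there, each being higher in at least 1 anti-Ly6G library. Errfi1 (141 TPM) was also highest in that library, while Areg (9.18 TPM) and Epgn (10.6 TPM) stayed there far under the anti-Ly6G values. Fos itself did not pass the edgeR test (-0.16 on the log2 scale, SE 0.42, adjusted p = 0.835).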
